A study of Homo sapiens with 6 samples.

Results

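The genes described here are those of WNT signalling: WNT ligands, Frizzled receptors and their co-receptors, secreted antagonists, and the proteins that carry or hold back the signal inside the cell. They were chosen by symbol, as WNT, FZD, DKK, SFRP, DVL and AXIN genes together with a list of further pathway genes. Of 18132 genes measured by a probe set that names 1 gene, 58 met this rule, and for each the probe set that was brightest on average over the 6 arrays was used. PORCN and TCF7, which the rule also names, were not analysed here, and neither was WNT3, since its 2 probe sets also name a second gene. Expression was measured on Affymetrix arrays in MDA-MB-231, an established human line of triple-negative breast cancer whose cells have a mesenchymal look. The drug SAHA, also called vorinostat, blocks histone deacetylases, and 3 arrays hold cells given 5 µM of it for 8 h. The other 3 arrays hold cells given DMSO, the solvent, for 8 h. All cells grew in the same serum-containing medium, with no WNT ligand or pathway inhibitor named as added, and 1 cell line at 1 dose and 1 time was analysed. The labels do not say whether the replicates were separate cultures, so the p-values below rest on a spread between arrays that may be technical.

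WNT proteins are secreted lipid-modified ligands that bind Frizzled receptors. With the co-receptors LRP5 and LRP6 they stop a destruction complex of APC, AXIN, GSK3 and casein kinase from marking beta-catenin for breakdown, and beta-catenin then enters the nucleus and acts with TCF and LEF factors on target genes. In another branch, ligands such as those of the WNT5 pair signal without beta-catenin, through Frizzled, ROR1 and ROR2, to cell polarity and movement, a branch often studied in mesenchymal breast cancer cells.

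WNT5B, a ligand best known for signalling without beta-catenin, and LEF1, a nuclear partner of beta-catenin, fell about 4-fold with SAHA, and the co-receptor LRP5 fell 2.10-fold. The receptor FZD4 rose 3.39-fold. WLS, the carrier that brings WNT ligands to the cell surface, fell 1.90-fold, and LRP6, the other co-receptor of the beta-catenin branch, rose 1.56-fold. CTNNB1, which encodes beta-catenin itself, was at 12.10 ± 0.02 log2 units in SAHA and 12.14 ± 0.07 in DMSO arrays (SD, n = 3 each) and did not pass the test in its brightest probe set. Of its 7 other probe sets 5 were lower with SAHA, at -0.44 to -0.17, and the mean over its probe sets passed, at -0.19.

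The promoters of the 4 genes that changed by at least 2-fold are shown here because the results turn on these genes. The windows are those of RefSeq (GRCh38.p14), 250 bases before to 50 bases after an annotated start, written 5′ to 3′ on the gene's own strand. WNT5B has 2 windows because RefSeq lists 2 starts, and which starts these cells use was not tested. Capitals mark matches on either strand to the GC box (GGGCGG), to a TCF/LEF word (CTTTGAA, with its variants CTTTGAT, then also CTTTGTA, and lastly CTTTGTT) or to the TATA box (TATAAA).
WNT5B, chr12:1616806-1617105, plus strand: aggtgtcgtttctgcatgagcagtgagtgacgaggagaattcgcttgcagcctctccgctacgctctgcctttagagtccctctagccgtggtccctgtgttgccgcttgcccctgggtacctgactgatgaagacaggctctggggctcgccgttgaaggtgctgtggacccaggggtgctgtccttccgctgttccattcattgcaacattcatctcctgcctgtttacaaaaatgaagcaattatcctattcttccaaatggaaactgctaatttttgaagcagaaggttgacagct
WNT5B, chr12:1628981-1629280, plus strand: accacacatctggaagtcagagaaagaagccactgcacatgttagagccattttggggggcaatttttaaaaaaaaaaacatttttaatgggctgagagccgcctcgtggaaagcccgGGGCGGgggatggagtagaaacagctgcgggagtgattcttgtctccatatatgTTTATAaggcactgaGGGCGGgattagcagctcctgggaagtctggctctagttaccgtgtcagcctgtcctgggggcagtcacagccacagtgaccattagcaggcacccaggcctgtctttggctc
LRP5, chr11:68312341-68312640, plus strand: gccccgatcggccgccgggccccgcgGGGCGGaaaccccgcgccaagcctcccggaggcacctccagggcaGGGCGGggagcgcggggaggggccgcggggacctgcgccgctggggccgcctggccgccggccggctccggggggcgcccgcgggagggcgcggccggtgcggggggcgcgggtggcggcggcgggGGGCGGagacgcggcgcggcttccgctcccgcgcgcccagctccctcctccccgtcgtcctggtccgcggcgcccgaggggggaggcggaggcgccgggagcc
LEF1, chr4:108166252-108166551, minus strand: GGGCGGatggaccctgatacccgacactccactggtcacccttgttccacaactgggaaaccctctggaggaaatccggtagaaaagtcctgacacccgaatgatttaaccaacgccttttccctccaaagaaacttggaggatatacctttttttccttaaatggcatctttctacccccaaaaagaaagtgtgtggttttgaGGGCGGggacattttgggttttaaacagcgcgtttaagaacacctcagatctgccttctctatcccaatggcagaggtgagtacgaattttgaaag
FZD4, chr11:86955346-86955645, minus strand: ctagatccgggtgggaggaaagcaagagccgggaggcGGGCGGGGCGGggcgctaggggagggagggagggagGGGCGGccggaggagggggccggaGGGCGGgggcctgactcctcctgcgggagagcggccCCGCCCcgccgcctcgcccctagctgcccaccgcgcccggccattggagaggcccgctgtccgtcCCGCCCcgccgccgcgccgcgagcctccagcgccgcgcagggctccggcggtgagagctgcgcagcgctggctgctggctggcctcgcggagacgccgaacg
The FZD4 window held 6 GC boxes, that of LRP5 held 3, that of LEF1 held 2, and the WNT5B windows held 0 and 2. None of the 5 windows matched a TCF/LEF word, and 1 of them, the second of WNT5B, matched the TATA box. Of all 35116 promoter windows, 45.0% held a GC box, 13.8% a TCF/LEF word and 11.5% a TATA box. Of the 49 windows of WNT pathway genes, which cover 41 of the 58 genes, 71.4% held a GC box, 4.08% a TCF/LEF word and 6.12% a TATA box.

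Values are log2 expression, normalized by the authors so that the arrays have nearly equal distributions, and differences are SAHA minus DMSO with limma's moderated standard error. A gene is said to have changed where limma's two-sided test over all 18132 genes gave a Benjamini-Hochberg adjusted p under 0.05. By this rule 11 of the 58 genes rose and 11 fell, which is 19.0% each, beside 24.6% higher and 23.8% lower among all genes. Together 37.9% of the 58 changed, against 48.3% of all genes. By at least 2-fold, 1 rose and 3 fell, or 6.90%, against 10.4% of all genes. The SAHA and DMSO values did not overlap in 27 of the 58, or 46.6%, against 55.5% of all genes. The median difference was 0.01 in the 58 genes and -0.01 over all genes. The even split moved with the scaling. Centred on ribosomal protein genes, 21 of the 58 were higher and 9 lower, and centred on poly-A spike-ins 24 were higher and 7 lower, while over all genes these scalings gave 5853 higher and 3448 lower, and 6023 higher and 2412 lower.

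**Figure D1:**
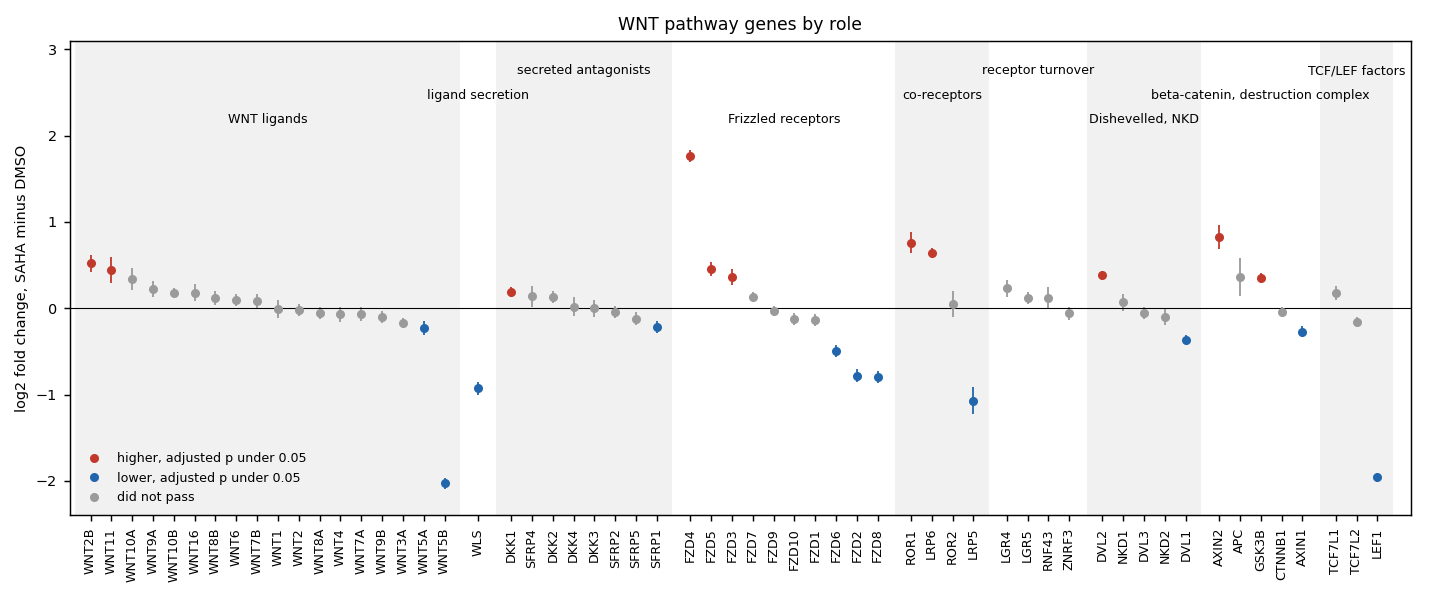
Log2 fold change of SAHA minus DMSO for each of the 58 WNT pathway genes, grouped by role; points are estimates from 3 arrays per group and bars are limma's standard error. FZD4 stands highest at 1.76, and WNT5B at -2.03 and LEF1 at -1.96 stand lowest.

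Brighter genes passed more often, in the pathway as in the whole table. The 58 genes had a median level of 6.13 log2 units, against 6.77 over all genes. Among genes with a mean over the 6 arrays of 7 or more, 75.1% of all genes and 15 of 23 WNT pathway genes (65.2%) changed. Between 5 and 7 the shares were 39.4% of all genes and 5 of 20 (25.0%), and under 5 they were 11.9% of all genes and 2 of 15 (13.3%). The deposited table holds no detection calls, so it cannot be said which of the dim genes were above background. The array's own background probe sets had a median of 3.23 ± 0.03 in SAHA and 3.29 ± 0.04 log2 units in DMSO arrays (SD, n = 3 each).

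**Figure D2:**
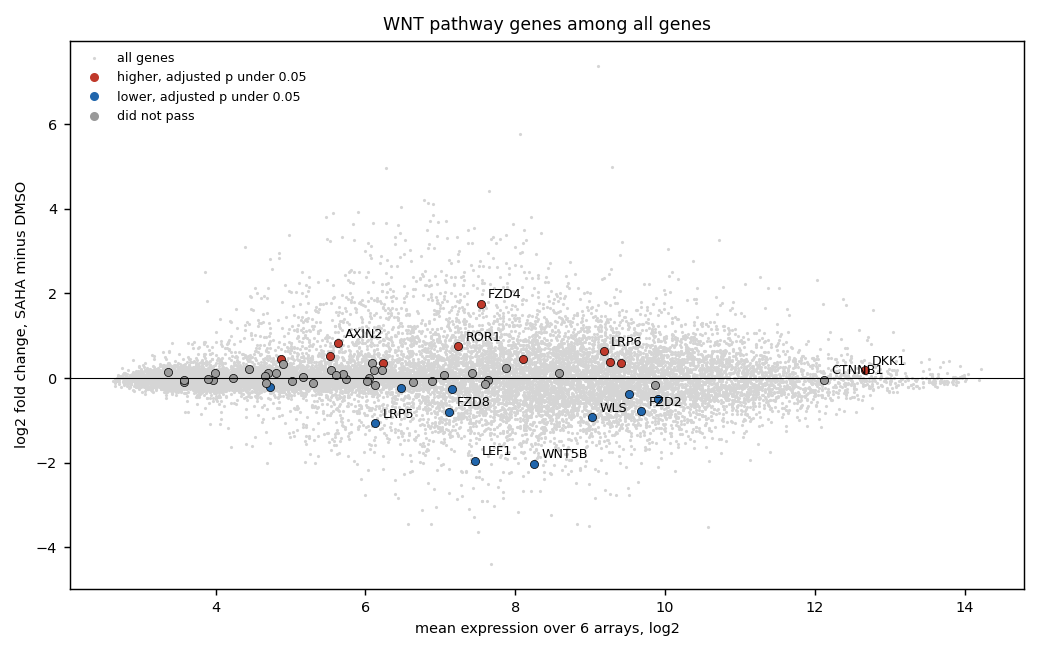
Log2 fold change of SAHA minus DMSO against the mean log2 level over 6 arrays, for all 18132 genes (small grey points) and the 58 WNT pathway genes (large points, coloured by the test). Genes of the pathway that changed by at least 2-fold lie at mean levels of 6.13 (LRP5) to 8.25 (WNT5B).

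The arrays of each group were nearly alike, with Pearson's r across probe sets of 0.997 to 0.998 within groups and 0.968 to 0.970 between them. The values followed a list of markers drawn up here for this line only in part. VIM was at 14.02 ± 0.02 log2 units in SAHA and 13.96 ± 0.01 in DMSO arrays, and the epithelial cadherin CDH1 was at 4.17 and 4.20 (n = 3 each). Of 10 markers listed as present in this line, some had means under 7 log2 units in both groups. These were TWIST1 (2.90 in SAHA, 3.20 in DMSO arrays), CDH2 (5.39 and 5.45) and SPARC (5.89 and 5.84). Of 8 listed as absent, some had a mean of at least 7 log2 units in 1 or both groups. These were EPCAM (7.74 in SAHA, 8.67 in DMSO arrays), KRT19 (10.10 and 7.36), ERBB2 (7.16 and 7.63) and FOXA1 (6.77 and 7.55). GATA3 (5.43 and 6.67), ESR1 (6.01 and 5.98), PGR (3.38 and 3.29) and CDH1 did not. The highest background probe set averaged 10.58 in SAHA and 10.34 in DMSO arrays, so these levels alone do not show which markers were expressed. The difference between the 3′ and 5′ control probe sets of ACTB, which tracks how whole the RNA is, was 0.61 ± 0.06 in SAHA and 0.89 ± 0.16 in DMSO arrays (two-sided exact permutation p = 0.1, which is as low as groups of 3 can reach, and 0.17 adjusted over 7 control measures). The same difference for GAPDH ran the other way, at 0.06 ± 0.02 in SAHA and 0.03 ± 0.02 in DMSO arrays (exact permutation p = 0.1, adjusted 0.17). With the ACTB difference as a covariate 9 of the 58 genes were higher and 7 lower, and over all genes 3368 were higher and 3169 lower.

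Of the 18 WNT ligand genes, 2 rose, 2 fell and 14 did not pass, at differences of -0.17 to 0.34. The median level of the 18 was 5.53 log2 units, and 39.4% of all genes at a mean of 5 to 7 changed. The levels of the 18 ran from 3.58 to 8.25, and at a mean under 5 the share of all genes was 11.9%. WNT5B was at 7.35, 7.17 and 7.19 log2 units in the SAHA arrays, against 9.26, 9.28 and 9.26 in the DMSO arrays. The groups were far apart, and the DMSO arrays nearly coincided. WNT5B fell by 2.03 ± 0.06 (4.07-fold, adjusted p = 3.54e-07). Its other probe sets gave -1.39 ± 0.09 and -0.80 ± 0.11, dimmer than the first and both past the test over probe sets.

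WNT5A, the close relative of WNT5B, was at 6.37, 6.38 and 6.31 in the SAHA arrays, against 6.73, 6.54 and 6.47 in the DMSO arrays. The groups did not overlap, but the highest SAHA value lay close to the lowest DMSO value. WNT5A fell by 0.23 ± 0.08 (adjusted p = 0.0394), a call lost in 12 of 17 other settings. Among those are leaving out any 1 array but DMSO replicate 3, with differences of -0.24 to -0.15, and centring on poly-A spike-ins, at -0.04. Of the 4 other probe sets of WNT5A, 1 gave -0.24 ± 0.08 and passed, while 3 gave -0.12 to 0.00 and did not.

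WNT2B, a ligand of the beta-catenin branch, rose by 0.52 ± 0.10 (adjusted p = 0.00328), at 5.63, 5.99 and 5.72 in SAHA against 5.23, 5.19 and 5.37 in DMSO arrays. Its second probe set gave 0.43 ± 0.07 and also passed. With the ACTB difference as a covariate WNT2B was at 0.30 (adjusted p = 0.191). WNT11, a ligand known for cell movements in embryos, was at 4.86, 5.23 and 5.17 in SAHA against 4.94, 4.58 and 4.43 in DMSO arrays, so the groups overlapped. Its rise of 0.44 ± 0.15 (adjusted p = 0.0437) was lost in 10 of 16 other settings, at 0.32 to 0.40 without SAHA replicate 2, SAHA replicate 3, DMSO replicate 2 or DMSO replicate 3. The dimmer probe set of WNT11 gave 0.26 ± 0.15 and did not pass.

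Beside WNT5B, all ligands lay under a mean of 7 log2 units, and their behaviour is given as values. WNT10A was at 0.34 ± 0.13 (adjusted p = 0.0579) and WNT10B at 0.18 ± 0.06 (adjusted p = 0.0503), just short of the threshold. Both passed without 1 array, WNT10A at 0.47 without DMSO replicate 1, and WNT10B at 0.22 without SAHA replicate 3 and at 0.21 without DMSO replicate 3. WNT9A (0.22) passed at 0.29 without DMSO replicate 3, and WNT16 (0.18) at 0.27 without DMSO replicate 2. WNT1, WNT2, WNT4, WNT6, WNT7A, WNT7B, WNT8A, WNT8B and WNT9B had differences of -0.10 to 0.12, and WNT3A, the classical activator of beta-catenin, was at -0.17 ± 0.06. A dimmer probe set of WNT4 gave 0.40 ± 0.10 and one of WNT3A gave -0.24 ± 0.06, both past the test over probe sets, as did one of WNT7B at -0.34 ± 0.10. Centred on ribosomal protein genes or on poly-A spike-ins, 7 ligands were higher and 1 lower, and with the ACTB covariate 0 were higher and 1 lower, so the split among dim ligands depends on the setting.

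WLS, which most WNT ligands need for their release, was at 8.62, 8.61 and 8.47 log2 units in the SAHA arrays, against 9.56, 9.44 and 9.47 in the DMSO arrays. All SAHA values lay well below all DMSO values. It fell by 0.93 ± 0.07 (adjusted p = 1.21e-05), and its 3 other probe sets were lower as well, at -0.92 to -0.30.

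**Figure D3:**
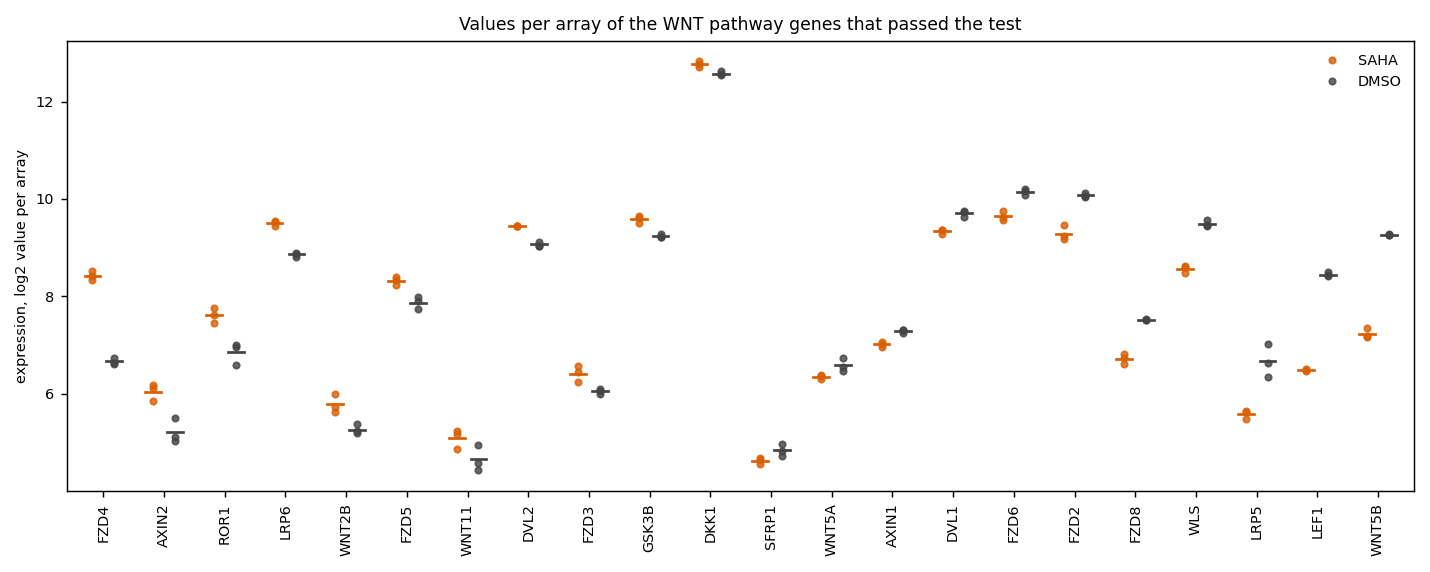
Log2 expression in each array (points) with group means (bars) for the 22 WNT pathway genes that passed the test, ordered by log2 fold change, with SAHA left of DMSO for each gene. The groups overlap only in WNT11; FZD4 and AXIN2 are at the left end, WNT5B and LEF1 at the right.

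Of 8 secreted antagonists, 1 rose, 1 fell and 6 did not pass, at -0.12 to 0.14. DKK2, SFRP1, SFRP2, SFRP4 and SFRP5 lay under a mean of 5 log2 units, where 11.9% of all genes changed. DKK1, which blocks LRP5 and LRP6, was at 12.77, 12.71 and 12.83 in the SAHA arrays, against 12.62, 12.57 and 12.54 in the DMSO arrays. The groups were apart by a narrow margin, and the rise was 0.19 ± 0.06 (adjusted p = 0.0243). It did not pass without SAHA replicate 1 (0.20), SAHA replicate 3 (0.16), DMSO replicate 2 (0.19) or DMSO replicate 3 (0.18), or with the replicate number as a block (0.19, adjusted p = 0.065). SFRP1, a decoy that binds WNT ligands, was at 4.67, 4.56 and 4.63 in SAHA against 4.83, 4.73 and 4.96 in DMSO arrays. SFRP1 fell by 0.22 ± 0.07 (adjusted p = 0.0398), a call lost when any 1 array but DMSO replicate 2 was left out, at -0.24 to -0.16, and its 3 other probe sets gave 0.01 to 0.07. DKK2, DKK4, SFRP2, SFRP4 and SFRP5 did not pass in any probe set. DKK3 was at 0.00 ± 0.10 in the probe set used, while a dimmer one gave -0.63 ± 0.15. Centred on poly-A spike-ins 3 antagonists were higher and 0 lower.

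The 10 Frizzled genes split, with 3 higher, 3 lower and 4 that did not pass, at -0.14 to 0.13. The median level of the 10 was 7.57 log2 units, and 75.1% of all genes at a mean of 7 or more changed. FZD4, a receptor needed for retinal blood vessels and the one that also binds Norrin, was at 8.52, 8.33 and 8.42 log2 units in the SAHA arrays, against 6.64, 6.62 and 6.74 in the DMSO arrays. No SAHA value came near a DMSO value, and FZD4 rose by 1.76 ± 0.07 (3.39-fold, adjusted p = 7.99e-07). The 2 dimmer probe sets of FZD4 rose less, by 0.54 ± 0.10 and 0.26 ± 0.09 (adjusted p = 0.00287 and 0.0462 over probe sets).

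FZD5 rose by 0.45 ± 0.08, at 8.39, 8.24 and 8.34 in SAHA against 7.91, 7.98 and 7.73 in DMSO arrays, and its second brightest probe set gave 0.42 ± 0.07. Its 3 dimmest gave -0.02 to 0.07 and did not pass. FZD3, known for guiding axons, rose by 0.36 ± 0.09, at 6.44, 6.24 and 6.56 in SAHA against 5.99, 6.06 and 6.10 in DMSO arrays, a call lost with the ACTB difference as a covariate (adjusted p = 0.136). The dimmer probe sets of FZD3 gave 0.48 ± 0.10, which passed, and 0.12 ± 0.09, which did not. FZD8 fell by 0.80 ± 0.07, at 6.81, 6.61 and 6.74 in SAHA against 7.51, 7.54 and 7.52 in DMSO arrays, and its other probe set gave -0.36. FZD2, which can bind WNT5A, fell by 0.78 ± 0.08, at 9.46, 9.23 and 9.18 in SAHA against 10.05, 10.12 and 10.06 in DMSO arrays. FZD6 fell by 0.50 ± 0.07, by 0.57 ± 0.07 in its other probe set, and was at -0.32 when centred on poly-A spike-ins. The groups did not overlap in any of the 6 Frizzled genes that passed, as in every passing gene of the 58 but WNT11. FZD7, a receptor studied in triple-negative breast cancer, was at 0.13 ± 0.06 and did not pass, nor did FZD1 (-0.14), FZD9 (-0.03) or FZD10 (-0.12). FZD7 passed when centred on ribosomal protein genes, at 0.23.

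The co-receptors LRP5 and LRP6 moved in opposite directions. LRP5 was at 5.63, 5.49 and 5.65 log2 units in the SAHA arrays, against 6.34, 7.02 and 6.63 in the DMSO arrays. The DMSO arrays were spread more widely than the SAHA arrays, yet all lay above them. LRP5 fell by 1.07 ± 0.16 (2.10-fold, adjusted p = 0.000664), in the only probe set it has. LRP6 was at 9.52, 9.44 and 9.54 in the SAHA arrays, against 8.90, 8.80 and 8.88 in the DMSO arrays, with a clear gap between the groups. It rose by 0.64 ± 0.06 (adjusted p = 4.82e-05), and its other probe sets gave 0.57 ± 0.08 and 0.86 ± 0.09.

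ROR1, a receptor tyrosine kinase that binds WNT5A, was at 7.62 ± 0.16 in SAHA and 6.86 ± 0.22 in DMSO arrays (SD, n = 3 each), with no overlap. ROR1 rose by 0.76 ± 0.12 (adjusted p = 0.0013), in a probe set that by its type matches several transcripts. Its other, dimmer probe set gave -0.01 ± 0.06, and the call was also lost with the ACTB difference as a covariate (0.58, adjusted p = 0.0791). ROR2, its relative, was at 0.05 ± 0.15 and did not pass, while a dimmer probe set gave -0.39 ± 0.10.

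Beside 48.3% of all genes changed, none of the 4 genes that set how long Frizzled receptors stay at the surface passed. In other settings some did, with 2 higher when centred on ribosomal protein genes, 3 when centred on poly-A spike-ins and 3 with the ACTB covariate, where RNF43 was at 0.51, LGR4 at 0.49 and LGR5 at 0.31. RNF43 and ZNRF3, the ubiquitin ligases that remove Frizzled, were at 0.12 ± 0.13 and -0.06 ± 0.08. LGR4 and LGR5, the receptors for R-spondins that shield Frizzled from them, were at 0.23 ± 0.10 and 0.12 ± 0.07. LGR4 passed without DMSO replicate 1, at 0.34 (adjusted p = 0.00477). A second, dimmer probe set of LGR5 was at 3.82, 4.04 and 4.13 in SAHA against 3.05, 2.90 and 2.74 in DMSO arrays, so its groups were apart. The difference there was 1.10 ± 0.11 (adjusted p = 6.89e-05 over probe sets), at a level near the median of the background probe sets.

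**Figure D4:**
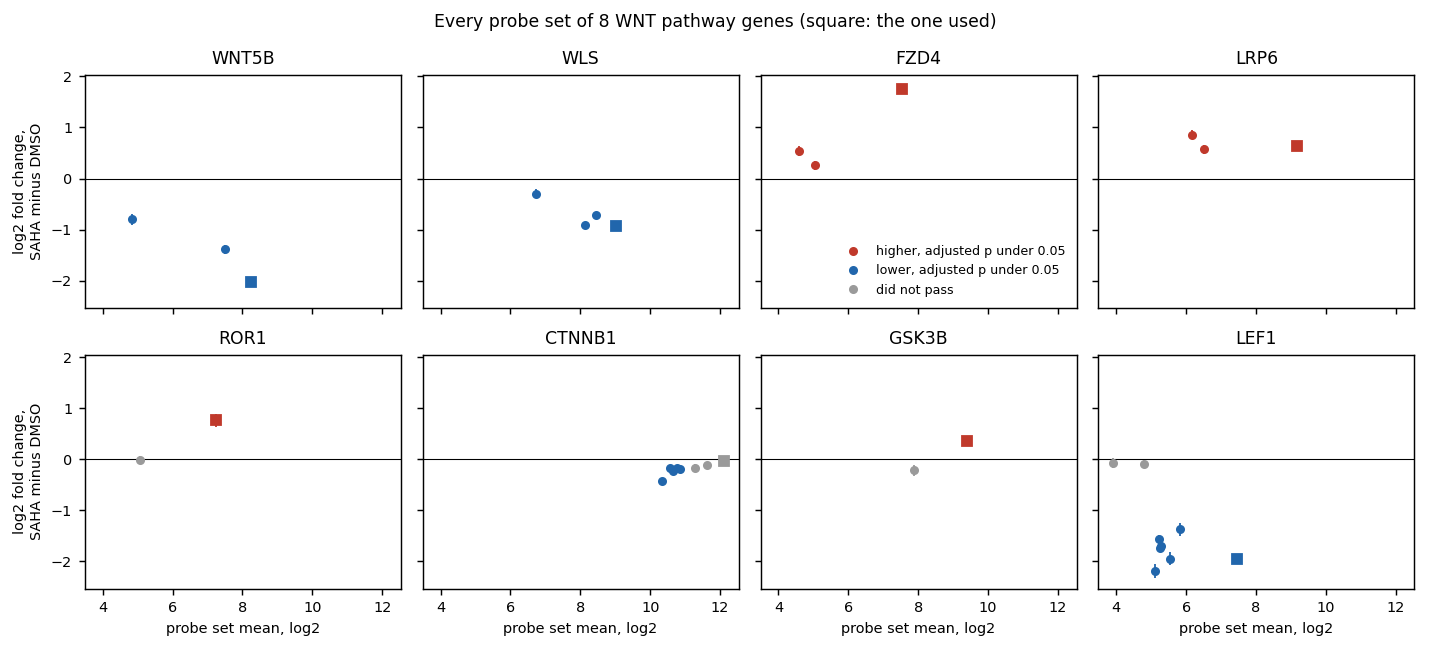
Log2 fold change of SAHA minus DMSO against the mean log2 level, for every probe set of 8 WNT pathway genes, with limma's standard error as bars; the square is the probe set with the highest mean, used for the gene. All probe sets of WNT5B and WLS lie below 0 and all of FZD4 and LRP6 above it, while ROR1 and GSK3B each have 1 that passed and 1 that did not.

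Dishevelled proteins pass the signal on from Frizzled. DVL1 fell by 0.37 ± 0.06, at 9.36, 9.28 and 9.36 in SAHA against 9.76, 9.63 and 9.73 in DMSO arrays. DVL2 rose by 0.38 ± 0.05, at 9.44, 9.45 and 9.45 in SAHA against 9.04, 9.12 and 9.04 in DMSO arrays. Neither gene's groups overlapped. DVL1 lost its call with poly-A centring (-0.19) and with the ACTB difference as a covariate (-0.32), while DVL2 was between 0.31 and 0.56 in all 18 settings run. The dimmer probe sets of DVL2 gave 0.33 ± 0.06 and 0.47 ± 0.14, which passed, and 0.06 ± 0.07, which did not. DVL3 was at -0.05 ± 0.07, in 2 probe sets whose values are identical in every array, and at -0.32 ± 0.08 in a dimmer one.

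NKD1 and NKD2 encode inhibitors of Dishevelled, and NKD1 is itself raised by beta-catenin in many cells. NKD1 was at 0.07 ± 0.10 and NKD2 at -0.10 ± 0.09, and neither passed. The 3 dimmer probe sets of NKD1 did pass, at 0.29 ± 0.08, 0.53 ± 0.12 and 0.84 ± 0.09. Averaged over its probe sets NKD1 was at 0.43 (adjusted p = 0.000291).

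Among beta-catenin and its destruction complex, 2 genes rose, 1 fell and 2 did not pass. Their median level was 7.15 log2 units, and 75.1% of all genes at a mean of 7 or more changed. CTNNB1 was at 12.10, 12.11 and 12.08 log2 units in the SAHA arrays, against 12.22, 12.11 and 12.08 in the DMSO arrays, and the groups overlapped. The difference was -0.04 ± 0.06 (adjusted p = 0.633). The other 7 probe sets of CTNNB1 were all at or below -0.11, and 5 of them were lower with SAHA, at -0.44 to -0.17. Averaged over its probe sets CTNNB1 was at -0.19 (adjusted p = 0.00564). Arrays measure transcripts, and the beta-catenin protein, whose breakdown the pathway controls, was not measured.

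AXIN1, the scaffold of the destruction complex, was at 6.95, 7.06 and 7.03 in the SAHA arrays, against 7.31, 7.30 and 7.25 in the DMSO arrays. It fell by 0.27 ± 0.06 (adjusted p = 0.00417), a call lost with centring on poly-A spike-ins (-0.09) and with the ACTB difference as a covariate (-0.25). AXIN2, the inducible scaffold and a widely used readout of beta-catenin activity, was at 6.11, 6.17 and 5.85 in the SAHA arrays, against 5.11, 5.51 and 5.02 in the DMSO arrays. All SAHA values were higher, and AXIN2 rose by 0.83 ± 0.14 (1.77-fold, adjusted p = 0.00163). The dimmer probe sets of AXIN2 gave 0.19 ± 0.06, which passed, and 0.17 ± 0.08, which did not.

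GSK3B, the kinase that marks beta-catenin for breakdown, was at 9.65, 9.51 and 9.60 in the SAHA arrays, against 9.21, 9.28 and 9.22 in the DMSO arrays. It rose by 0.35 ± 0.06 (adjusted p = 0.00156), but its second probe set gave -0.22 ± 0.11 and the mean of both gave 0.06. APC, the tumour suppressor of the complex, was at 6.20, 6.16 and 6.45 in SAHA against 5.38, 6.31 and 6.03 in DMSO arrays, with DMSO replicate 1 standing low. The groups overlapped, and the difference was 0.36 ± 0.22 (adjusted p = 0.226). Its other probe sets gave 0.56 ± 0.14 and 0.61 ± 0.13 and passed. In the probe set used APC passed without DMSO replicate 2, at 0.57 (adjusted p = 0.0467), and was at 0.10 (adjusted p = 0.564) without DMSO replicate 1, and at -0.07 with the ACTB covariate.

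In the probe sets used and the main fit, LEF1 was the only one of 3 TCF/LEF genes that passed, beside 48.3% of all genes. It was at 6.48, 6.47 and 6.50 log2 units in the SAHA arrays, against 8.44, 8.41 and 8.49 in the DMSO arrays. The arrays of each group lay close together, far from the other group. LEF1 fell by 1.96 ± 0.05 (3.89-fold, adjusted p = 2.08e-07). Of its 9 probe sets 7 were lower, the other 6 of these at -2.19 to -1.38, and the 2 dimmest gave -0.09 and -0.07. TCF7L2, which carries most of the pathway's output in gut epithelium, was at -0.16 ± 0.06 (adjusted p = 0.0702), with its 6 other probe sets at -0.22 to -0.06. It passed without SAHA replicate 1, at -0.20 (adjusted p = 0.0476), and over the mean of its probe sets, at -0.15 (adjusted p = 0.0353). TCF7L2 also passed when genes under a mean of 5 or of 7 log2 units were left out, and with trend and robust moderation in limma, at -0.16 each time. TCF7L1, mostly a repressor, was at 0.18 ± 0.08 and passed without SAHA replicate 1, at 0.26 (adjusted p = 0.0158), and in its dimmest probe set, at 0.80 ± 0.11. Over the mean of its probe sets TCF7L1 was at 0.37 (adjusted p = 0.00382). It also passed when centred on ribosomal protein genes (0.28) or on poly-A spike-ins (0.36).

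Further genes of the pathway were taken from lists written from textbook knowledge, described here by their counts and medians. Of 22 measured secreted and cell surface regulators, 7 rose and 3 fell, with a median of -0.01, beside 48.3% of all genes changed, and centred on poly-A spike-ins 7 were higher and 1 lower. Their median level was 5.04 log2 units, and of all genes 39.4% at a mean of 5 to 7 and 11.9% under 5 changed. RECK, a membrane-anchored protein that serves WNT7 signalling with ADGRA2, rose by 2.17 ± 0.10, though its second brightest probe set gave 0.12, which did not pass, and the mean of its probe sets 1.03. ADGRA2 rose by 0.80 ± 0.08. TMEM67, a ciliary Frizzled-like protein, rose by 0.77 ± 0.05, or 0.48 over the mean of its probe sets, and TRABD2A, a protease that can inactivate WNT ligands, fell by 0.96 ± 0.11.

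Of 19 genes of the destruction complex and of its kinases and ligases, 7 rose and 9 fell (median -0.17), and centred on poly-A spike-ins 8 were higher and 4 lower. Their median level was 9.31 log2 units, and of all genes at 7 or more 75.1% changed. CUL1, the scaffold of the ligase that tags beta-catenin, was at 7.96 ± 0.18 log2 units in SAHA and 10.73 ± 0.07 in DMSO arrays (SD, n = 3 each), and fell by 2.77 ± 0.10. SIAH1, a ligase of a second route of beta-catenin breakdown, fell by 1.06 ± 0.07. CTNNBIP1, which keeps beta-catenin from TCF factors, rose by 1.39 ± 0.06. CBY1, which also binds beta-catenin and blocks it, rose by 0.57 ± 0.05.

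Of 23 nuclear partners of beta-catenin, 3 rose and 10 fell (median -0.12), beside 24.6% higher and 23.8% lower among all genes and 75.1% changed among all genes at a mean of 7 or more. Their median level was 9.13 log2 units, and centred on poly-A spike-ins 5 were higher and 7 lower. HIPK2, a kinase that phosphorylates TCF factors, fell by 2.16 ± 0.08, with -1.31 over the mean of its probe sets. The corepressor CTBP2 fell by 1.38 ± 0.07 and its relative CTBP1 fell by 0.85 ± 0.05. TBL1XR1, a subunit of corepressor complexes that also binds beta-catenin, fell by 0.94 ± 0.05.

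In the planar polarity and calcium branches 13 of 27 genes rose and 4 fell (median 0.20), against a median of -0.01 over all genes, of which 24.6% were higher and 23.8% lower. Their median level was 8.12 log2 units, where 75.1% of all genes at 7 or more changed. Centred on poly-A spike-ins 18 were higher and 1 lower. DAAM1, a formin that binds Dishevelled, was at 9.89 ± 0.11 in SAHA and 7.47 ± 0.08 log2 units in DMSO arrays, and rose by 2.42 ± 0.07. CELSR2, a cadherin of planar polarity, rose by 2.06 ± 0.15, and CAMK2G, a calcium-dependent kinase, by 0.78 ± 0.06. VANGL1, a membrane protein of planar polarity, fell by 1.10 ± 0.08, with -0.52 over the mean of its probe sets.

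Of 26 genes often raised by beta-catenin in other cells, 8 rose and 11 fell (median -0.11), and centred on poly-A spike-ins 10 were higher and 9 lower. Many of these genes also answer to other pathways. The median level of the 26 was 7.8 log2 units, and 75.1% of all genes at a mean of 7 or more changed. By at least 2-fold, 6 of the 26 rose and 6 fell, against 5.93% of all genes higher and 4.47% lower by that much. Those shares include many dimmer genes, which passed less often, so they are not matched for level. EDN1, which encodes endothelin 1, fell by 2.83 ± 0.07. PLAUR, the urokinase receptor, fell by 2.47 ± 0.07, and CCND1, the G1 cyclin, fell by 2.19 ± 0.06. ID2, whose protein binds helix-loop-helix factors and blocks them, rose by 4.13 ± 0.11. Among the 58 genes AXIN2, LEF1, NKD1 and RNF43 are examples of genes also raised by beta-catenin in many cells. In the probe sets used AXIN2 rose, LEF1 fell, and NKD1 and RNF43 did not pass. Dimmer probe sets of AXIN2 gave 0.19 and 0.17, and those of NKD1 passed, at 0.29, 0.53 and 0.84.

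**Figure D5:**
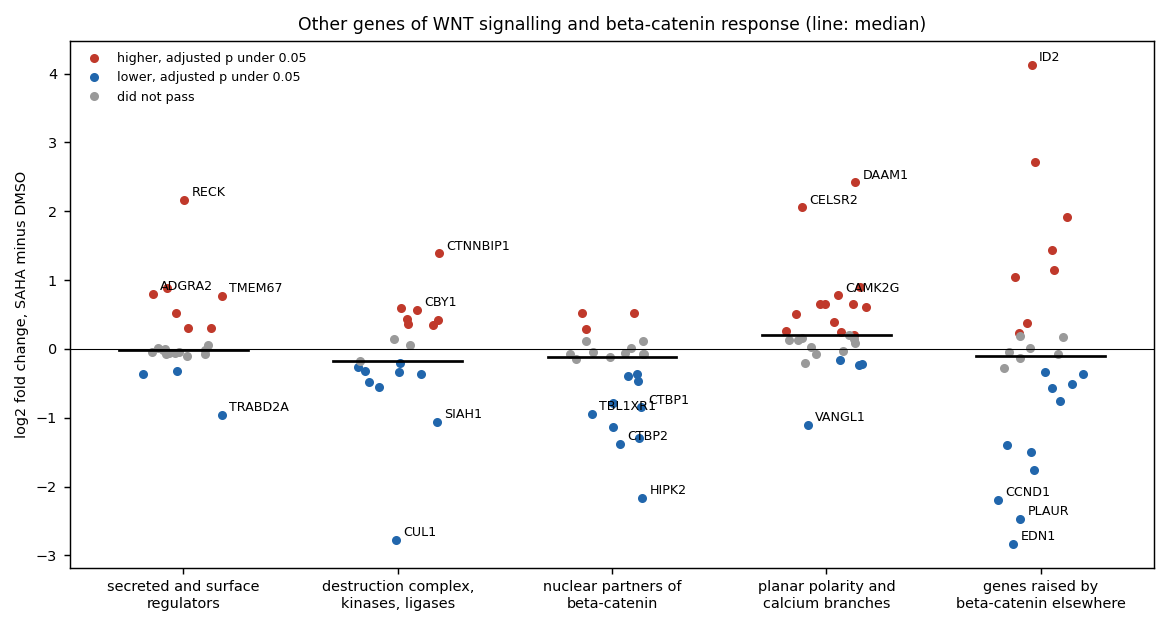
Log2 fold change of SAHA minus DMSO for genes of 5 further lists (points, coloured by the test, with the 4 genes of smallest p in each list named) and each list's median (black line). Medians lie between -0.17 and 0.20, and single genes between -2.83 (EDN1) and 4.13 (ID2).

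Across all 158 probe sets of the 58 genes, 29 were higher and 35 lower in limma's test over 49293 probe sets, or 18.4% and 22.2%, against 22.2% and 24.1% of all probe sets. None of the 58 genes had probe sets called in both directions. In 11 of the 36 genes that did not pass, another probe set did.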

How the data were processed

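Extracted RNA was biotin-labelled with a 3′ in vitro transcription kit and hybridized to 6 arrays, per the labels' protocols. The values deposited by the authors are log2 expression per probe set. RMA, which equalizes the arrays' distributions, is named in the submitters' processing notes, its software and version being not given in the sources used here; a change shared by most transcripts is therefore hidden. The number of arrays limits the precision.

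Of 49395 probe sets, 102 were array controls, 44988 named 1 gene, 1832 several and 2473 none in the platform annotation. Symbols were checked by Entrez identifier against RefSeq (GRCh38.p14), where 27 were not found. Each gene took its brightest probe set among those that name it alone. limma 3.58.1 (R 4.3.3; lmFit and eBayes, no covariate or filter) gave two-sided p-values, adjusted by Benjamini-Hochberg over 18132 genes, or over 49293 probe sets where several probe sets of a gene are given. It was tested on simulated data.

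The genes and lists were chosen with earlier results of these data known. The text gives every gene of the set, array values for those with a 2-fold change and for CTNNB1, APC, GSK3B and AXIN1, and the 4 genes of smallest p in each further list; other array values were added after they were seen. Alternatives were a replicate block, other choices of probe set, filters at 5 and 7, a second quantile normalization, 2 other scalings, trend and robust moderation, the ACTB covariate, a threshold of 0.01 and leaving out each array.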

Additional observations from a re-analysis of the deposited data

How the results depend on the processing

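Of the 22 WNT pathway genes that changed, 12 kept their call under each of the alternatives run on them: WNT5B, WLS, FZD2, FZD4, FZD5, FZD6, FZD8, LRP5, LRP6, DVL2, AXIN2 and LEF1. FZD2 and LRP5 are among the 16 genes with 1 probe set, whose differences other choices of probe set could not change. Such values are also part of the next count. Over 992 values recomputed for the 58 genes under 18 alternatives, 881 kept direction and side of the threshold, 48 lost a call, 57 gained one and 6 turned direction where 1 of the values was called. The last were, with the second brightest probe set, GSK3B at -0.22, ROR1 at -0.01, ROR2 at -0.39, SFRP1 at 0.07 and WNT4 at 0.40, and, without probe sets shared by similar transcripts, ROR1 at -0.01.

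Scaling moved the balance most. Centring on ribosomal protein genes shifted the median of all genes by 0.11 and gave 21 WNT pathway genes higher, with 21 of their probe sets lower. Centring on poly-A spike-ins shifted it by 0.18 and gave 24 genes higher and 7 lower, 19 probe sets lower, and 2412 of all genes lower with 6023 higher. These spike-ins were at 6.73, 6.62 and 6.59 log2 units in SAHA against 6.97, 6.73 and 6.79 in DMSO arrays (two-sided exact permutation p = 0.2, adjusted 0.23). With the ACTB covariate 7 genes were lower, and 18 probe sets were higher and 21 lower. At a mean of at least 7 log2 units, which leaves fewer probe sets, 10 probe sets were higher and 22 lower, and at an adjusted p of 0.01 there were 23 lower. The cause of the other changes was not tested.

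Leaving out 1 array at a time gave 10 to 13 genes higher and 9 to 10 lower, 24 to 30 probe sets higher and 27 to 31 lower, and over all genes 4115 to 4332 higher and 3952 to 4154 lower; it changed a call in 12 of the 58 genes. Samples with the same replicate number showed no shared deviation (correlations of -0.10, -0.08 and -0.03). Taken over all probe sets, from means of 3 arrays, these correlations cannot tell whether the numbers pair the samples. With a replicate block, 9 genes were higher and 11 lower, 25 probe sets higher and 29 lower, and 4214 of all genes higher and 4077 lower.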

Other observations

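The 2 probe sets that name WNT3 together with a second gene, LOC101929777, stood outside the tests of genes. One was at 6.72, 6.35 and 6.43 log2 units in the SAHA arrays, against 6.75, 6.81 and 6.89 in the DMSO arrays. The other was at 5.43, 5.17 and 5.08 in SAHA against 5.28, 5.14 and 5.45 in DMSO arrays. Only the first had groups that did not overlap.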
